A study of Mus musculus with 8 samples.

Results

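The genes described here are 10 whose transcripts respond to firing in neurons: Arc, Inhba, Nptx2, Gadd45b, Pim1, Homer1, Ptgs2, Rheb, Dusp1 and Rgs2. Their products were grouped as secreted, synaptic or signalling proteins, apart from the transcription factors that activity induces. They were taken by name from the array files, where 18 of 39429 probes carry one of these names, and all 10 were among the 18307 genes tested. Whole hippocampus was compared between mice that carried Ctcf loxP/loxP with Camk2a-Cre (CKO) and mice with Ctcf loxP/loxP and no Cre (WT), so the floxed alleles were common to both genotypes and Cre was present in CKO alone, where it cannot be told apart from the loss of Ctcf. All mice were C57BL/6 and had been through an open field, a sensorimotor battery, a water maze and a social approach test before tissue was taken. Each sample was RNA pooled from 3 mice, with 3 pools per genotype and the same makeup for the same pool number: pool 1 held 2 females and 1 male of 19 to 23 weeks, pool 2 held 3 females of 18 to 19 weeks, and pool 3 held 3 males of 15 to 17 weeks. For both genotypes pool 1 was run on a pair of arrays, which makes 8 arrays on 2 slides. Pool 2 shared slide 1 with the first pair of pool 1 arrays, and pool 3 shared slide 2 with the repeat arrays of pool 1. The Camk2a promoter drives Cre in excitatory forebrain neurons, while the RNA came from all cells of the tissue. In such bulk RNA, fewer cells of a type and less RNA per cell cannot be told apart.

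Synaptic activity raises calcium in neurons, which switches on a first wave of transcription within minutes. Part of that wave encodes transcription factors, and another part encodes effectors that change the synapse itself. Arc removes AMPA receptors from the membrane, Homer1a loosens the postsynaptic scaffold, Nptx2 clusters AMPA receptors from outside the cell, and Inhba gives rise to activin A. In hippocampus these transcripts mark recently active neurons and are used as readouts of learning and of seizures.

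Both probe and promoter sequences help in reading the values. The Homer1 probes are shown, because Homer1 makes a short, activity-induced form (Homer1a) and long constitutive forms, and only probes can tell them apart on an array. The array design assigns 3 probes to NM_011982 and 2 to NM_147176. That the first is the short form and the other a long form is background knowledge and is not stated in the array files. The 60-base probes below are read from the array files in the sense of the transcript, with the stop codon that ends the short form's reading frame in capitals. The probe at base 1304 reads the short form's own end, and those at bases 1219 and 1036 lie upstream of it in the part that, as background, both forms share. The probe at base 1394 lies in the coiled-coil part of the long form. The Inhba probe is shown because that gene had the largest difference of the 10.
Homer1 A_55_P1982121, NM_011982 base 1304: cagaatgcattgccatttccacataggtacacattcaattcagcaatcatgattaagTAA
Homer1 A_55_P1982122, NM_011982 base 1219: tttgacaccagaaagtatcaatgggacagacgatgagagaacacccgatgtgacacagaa
Homer1 A_55_P2122789, NM_011982 base 1036: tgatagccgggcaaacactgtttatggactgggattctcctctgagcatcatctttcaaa
Homer1 A_66_P104134, NM_147176 base 1394: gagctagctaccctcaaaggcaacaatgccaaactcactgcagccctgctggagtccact
Inhba A_51_P239750, NM_008380 base 1118: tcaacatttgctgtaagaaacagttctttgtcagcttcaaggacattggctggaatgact

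The stretch upstream of the start site is shown for 3 genes that differ in their values. RefSeq sequence (GRCm38.p6) was at hand for 8 of the 10 genes in 10 entries, and Arc and Nptx2 had no entry. The 250 bases before each start were searched on both strands for the cyclic AMP response element (CRE), TGACGTCA, and for its shared core, TGACG, here called the core site, which lies within the full element on each strand. Capitals below mark every core site. The full element was found in Dusp1 alone of the 8 genes, and in 1.55% of all 32851 entries of the table. The core site was found in 4 of the 8 genes, Dusp1, Homer1, Rgs2 and Rheb, and in 17.8% of all entries. In Dusp1 the full element ended 135 bases before the start, in Rgs2 the core sites ended 180 and 62 bases before it, and in Homer1 they ended 51, 35 and 9 bases before it. The AP-1 site TGANTCA (6.75% of all entries) and the CArG box of serum response factor (1.47%) were found in 0 of the 8 genes, TATAAA (12.4%) in Gadd45b and Inhba, and the E-box CACGTG (6.02%) in 4 genes, Dusp1, Gadd45b, Pim1 and Rheb. These are matches of letters in a short window, and binding was not measured.
Dusp1, chr17:26508473-26508722, minus strand: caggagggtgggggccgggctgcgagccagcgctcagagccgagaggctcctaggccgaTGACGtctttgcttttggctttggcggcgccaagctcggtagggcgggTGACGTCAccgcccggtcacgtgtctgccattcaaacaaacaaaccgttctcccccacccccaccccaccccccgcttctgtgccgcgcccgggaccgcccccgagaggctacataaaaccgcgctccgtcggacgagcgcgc
Rgs2, chr1:144004150-144004399, minus strand: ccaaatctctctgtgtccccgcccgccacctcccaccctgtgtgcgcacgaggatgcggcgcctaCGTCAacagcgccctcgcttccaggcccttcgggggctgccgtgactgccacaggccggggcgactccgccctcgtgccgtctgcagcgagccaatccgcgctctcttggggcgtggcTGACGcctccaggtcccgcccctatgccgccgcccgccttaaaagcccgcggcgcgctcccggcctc
Homer1, chr13:93303507-93303756, plus strand: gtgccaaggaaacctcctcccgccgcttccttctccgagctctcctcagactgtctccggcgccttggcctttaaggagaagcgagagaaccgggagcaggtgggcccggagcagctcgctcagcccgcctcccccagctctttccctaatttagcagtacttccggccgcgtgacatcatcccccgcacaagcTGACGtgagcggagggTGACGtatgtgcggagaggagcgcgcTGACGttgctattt
By their RefSeq annotation the 10 genes lie on chromosomes 1 (Ptgs2 and Rgs2), 5 (Nptx2 and Rheb), 10 (Gadd45b), 13 (Homer1 and Inhba), 15 (Arc) and 17 (Dusp1 and Pim1).

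Across the 10 genes, 7 stood high in CKO pools 1 and 3 and near WT in CKO pool 2, and the other 3, Homer1, Rheb and Dusp1 as read by their brightest probes, differed little. Values are the log2 of the processed spot signal relative to the 75th percentile of the array, so that 1 unit is a doubling and levels of different probes are not comparable. The median CKO minus WT difference over the 10 genes was 1.79 in pool 1, -0.08 in pool 2 and 1.60 in pool 3. Over all 18307 genes the same medians were -0.03, 0.05 and -0.03. In pool 1 the CKO pool was above the WT pool for 10 of the 10 genes, in pool 2 for 4, and in pool 3 for 8. On the first arrays of pool 1 alone the count was 9, as Homer1 was at -0.06 there and at 0.27 on the second arrays. The difference exceeded 1 for 6 genes in pool 1, for 0 in pool 2 and for 7 in pool 3, where 1.70%, 1.16% and 1.44% of all genes did so.

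**Figure D1:**
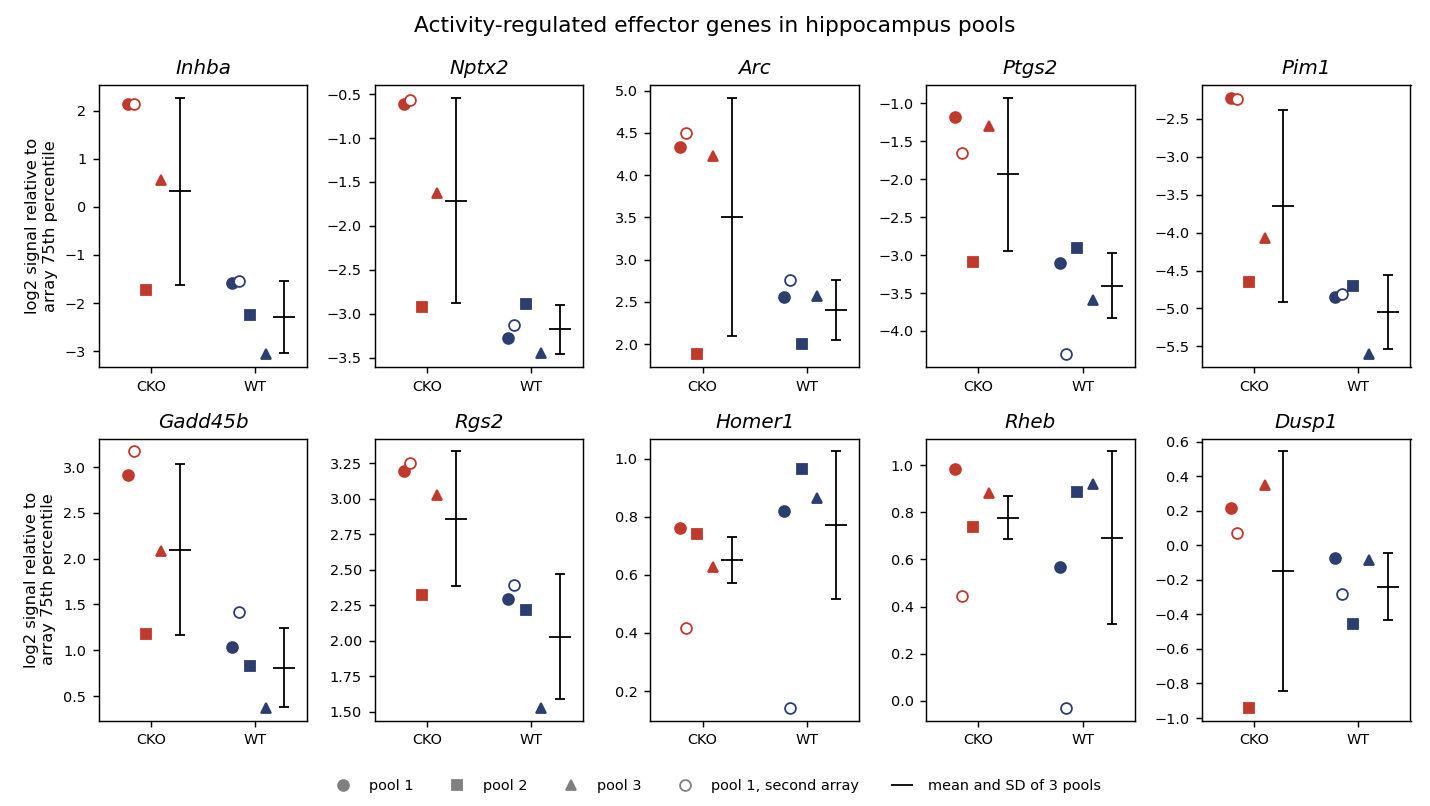
Log2 signal relative to the array 75th percentile for the 10 genes, each read by its brightest probe, with CKO left of WT in every panel. Symbols are single arrays by pool number (open circles are the second arrays of pool 1), and the bar is the mean and SD of 3 pools. In the first 7 panels CKO pools 1 and 3 stand above the WT pools, and CKO pool 2 lies among or next to them.

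None of the 10 passed the limma test across all genes (adjusted p from 0.653 to 0.999), in which 0.0382% of genes were called higher in CKO and 6 of the 10 were higher at an unadjusted p under 0.05, as were 533 of all 18307 genes. With the pool number as a block, 0.382% of genes were called higher, and 2 of the 10 passed: Inhba (adjusted p = 0.0479) and Gadd45b (adjusted p = 0.0498). The mean difference was positive for 9 of the 10 genes, where 49.4% of all genes were above 0, and its median over the 10 was 1.19. It was at least 0.5 for 7 genes, where 3.35% of all genes reached that size. Every CKO pool exceeded every WT pool for Pim1 alone, where 5.71% of all genes did so. Pim1 cleared background on 2 of 4 WT arrays and Ptgs2 on 3 of 4, so both entered the test through their CKO arrays. Both are among the genes counted above at an unadjusted p under 0.05 and at a difference of at least 0.5. The CKO pools spread more widely than the WT pools: the mean of the 10 genes, each set against its WT mean, was 1.75, 0.10 and 1.22 in CKO pools 1, 2 and 3, against 0.09, 0.11 and -0.21 in the WT pools. Without CKO pool 2 the median difference over the 10 was 1.82, and without CKO pool 1 it was 0.66.

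Inhba encodes the subunit that pairs to form activin A, a secreted ligand of the TGF-beta family that is induced by synaptic activity. Its signal was 2.14, -1.73 and 0.55 in CKO pools 1, 2 and 3, against -1.56, -2.24 and -3.06 in the WT pools. CKO pools 1 and 3 lay above every WT pool, and CKO pool 2 lay within the WT range. Inhba averaged 0.32 ± 1.95 in CKO pools and -2.29 ± 0.75 in WT pools (SD, n = 3 each), a difference of 2.61 (SE 0.84) or 6.10-fold, which was the third largest of all 18307 genes. It did not pass the limma test (adjusted p = 0.675). The block removes what same-numbered pools share, and with it Inhba rose (adjusted p = 0.0479), with the CKO pool higher in 3 of 3 pool numbers by 3.71, 0.51 and 3.61. That call was lost with the second array of WT pool 1 left out (adjusted p = 0.101 with the block) and with quantile scaling (0.0959), and likewise without pool 1 of both genotypes (0.211). Both arrays of pool 1 gave nearly the same difference for Inhba, 3.73 on the first and 3.68 on the second.

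The other genes of the activin pathway had smaller differences. Of 15 measured ligands, antagonists, receptors and SMADs, 6 had a positive difference, 0 passed the limma test and the median was -0.08. Inha, the alpha subunit that turns activin into inhibin, averaged 0.69 ± 0.10 in CKO pools and 0.12 ± 0.11 in WT pools (SD, n = 3 each), a difference of 0.57 (SE 0.13, limma adjusted p = 0.299) that was alike in pools 1, 2 and 3 (0.61, 0.55 and 0.55). Inhbb, the beta subunit of activin B, had a difference of -0.35 (SE 0.15, limma adjusted p = 0.903), with -0.32, -0.28 and -0.44 in pools 1, 2 and 3. The differences of Fstl3, a secreted activin antagonist, and Acvr1c, a type I receptor, were 0.63 (SE 0.25) and 0.32 (SE 0.16).

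Nptx2, or Narp, is a secreted pentraxin that gathers AMPA receptors at synapses on interneurons. On its brighter probe the signal was -0.59, -2.92 and -1.63 in CKO pools 1, 2 and 3, against -3.20, -2.89 and -3.45 in the WT pools. CKO pools 1 and 3 lay above every WT pool, and CKO pool 2 fell just under WT pool 2. The means were -1.71 ± 1.17 in CKO pools and -3.18 ± 0.28 in WT pools (SD, n = 3 each), a difference of 1.47 (SE 0.51, limma adjusted p = 0.752, 0.196 with the block) or 2.77-fold. The second Nptx2 probe cleared background, by the scanner software's flag for a signal well above it, on 3 of 4 CKO arrays and on 0 of 4 WT arrays and was not tested. Its mean signal over the CKO pools was at least 1.59-fold the WT level. For this bound each WT array took the probe's own value or, where higher, the lowest signal of any probe well above background there. CKO pool 2 read -5.88, against -5.81 in WT pool 2, and had no bound of its own. In pool 1 alone this bound was 3.29-fold, so both Nptx2 probes were highest in CKO pool 1.

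Arc encodes a cytoskeletal protein that promotes endocytosis of AMPA receptors and is needed for lasting memory. Its signal was 4.41, 1.88 and 4.22 in CKO pools 1, 2 and 3, against 2.65, 2.00 and 2.56 in the WT pools. The lowest of the 6 values was that of CKO pool 2, so the genotypes overlapped. Arc averaged 3.51 ± 1.41 in CKO pools and 2.41 ± 0.35 in WT pools (SD, n = 3 each), a difference of 1.10 (SE 0.59, limma adjusted p = 0.986, 0.196 with the block). By pool number the difference was 1.76, -0.12 and 1.66, which is 3.39-fold in pool 1 and 3.16-fold in pool 3. The arrays of pool 1 gave 1.78 and 1.74.

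Partners of Nptx2 and Arc at the synapse had small differences. Of 9 measured pentraxin, AMPA receptor and endocytic genes, 3 had a positive difference, 0 passed the limma test and the median was -0.07. Nptx1, the constitutive pentraxin, had a difference of 0.19 (SE 0.20). The AMPA receptor subunits Gria1 and Gria4 had differences of -0.22 (SE 0.17) and -0.29 (SE 0.14), and the endophilin gene Sh3gl3 one of -0.15 (SE 0.12).

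Homer1 gave a value that depended on the probe. On the brightest probe, at base 4534 of the long transcript, the signal was 0.59, 0.74 and 0.63 in CKO pools 1, 2 and 3, against 0.48, 0.96 and 0.86 in the WT pools, a difference of -0.12 (SE 0.15, limma adjusted p = 0.999). The genotypes overlapped on this probe, with pool differences of 0.11, -0.22 and -0.24. The probe on the short form's own end read -2.56, -7.21 and -5.68 in CKO pools 1, 2 and 3, against -6.58, -6.48 and -6.98 in the WT pools. It cleared background on both arrays of CKO pool 1, at -2.57 and -2.56, and on none of the other 6 arrays, and it was not tested. The signal of CKO pool 1 was at least 4.65-fold that of WT pool 1 by the bound described for Nptx2, and over the 3 pools of each genotype the bound was 1.00-fold.

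The remaining Homer1 probes lay between these. The 2 probes upstream of the short form's end, at bases 1219 and 1036, had differences of 0.44 and 0.50 over the 3 pools, and in both CKO pool 1 stood highest, at -1.50 and -1.42, against -2.54 and -2.40 in WT pool 1. The coiled-coil probe of the long form at base 1394 had a difference of 0.62, with each CKO pool above each WT pool, as for 5.71% of all genes. The size of that difference in pool 1 depended on the array, as the second array of WT pool 1 read -2.99 against -1.47 on the first. The pool 1 difference was 0.19 on the first arrays and 2.20 on the second, while pools 2 and 3 gave 0.08 and 0.59.

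**Figure D2:**
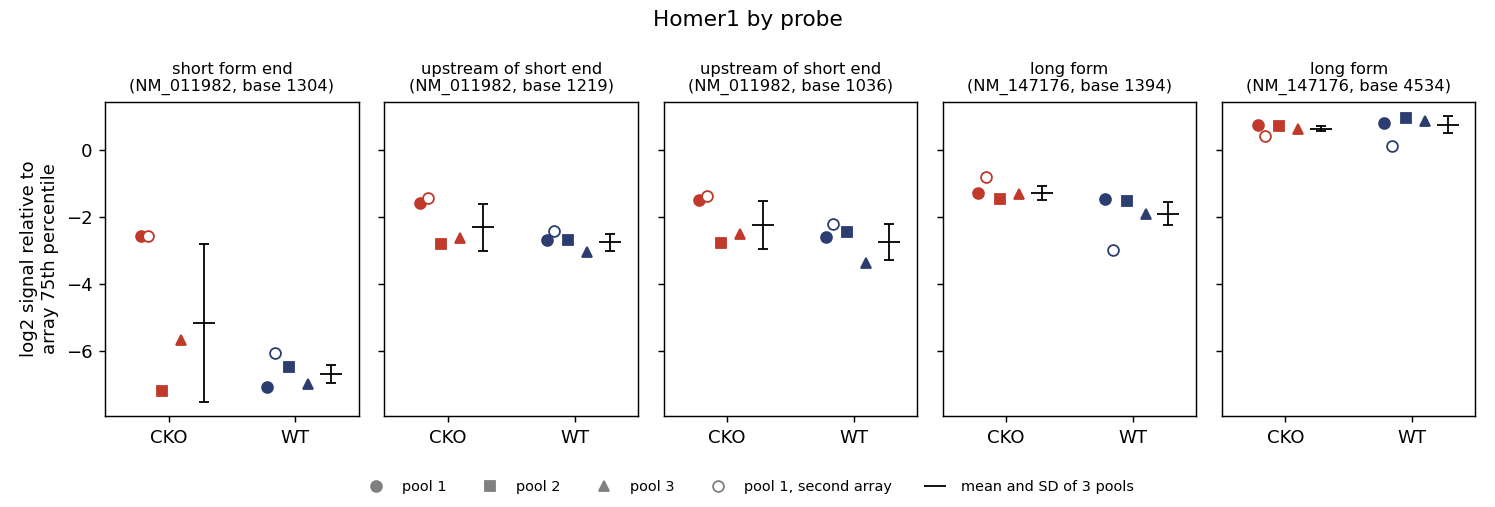
Log2 signal relative to the array 75th percentile for the 5 Homer1 probes, CKO left of WT, with single arrays as symbols and the mean and SD of 3 pools as bars. The short form's end reads about -2.56 on both arrays of CKO pool 1 and -5.68 or less on the other 6 arrays, while the long form's probe at base 4534 overlaps between genotypes.

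Homer proteins join group I metabotropic glutamate receptors to Shank and to calcium stores. Of 11 measured genes of this scaffold, 6 had a positive difference, 0 passed the limma test and the median was 0.01. Homer2 and Shank3 had differences of 0.24 (SE 0.21) and 0.24 (SE 0.16). Homer3 had a difference of -0.36 (SE 0.16, limma adjusted p = 0.906), with -0.53, -0.37 and -0.19 in pools 1, 2 and 3.

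Ptgs2 encodes cyclooxygenase-2, the inducible enzyme that makes prostaglandins and that excitatory neurons express on activity. The array held 10 spots of its probe. Their mean was -1.41, -3.10 and -1.29 in CKO pools 1, 2 and 3, against -3.71, -2.91 and -3.59 in the WT pools. CKO pools 1 and 3 lay above every WT pool, and CKO pool 2 lay within the WT range. The difference was 1.47 (SE 0.47, limma adjusted p = 0.653, 0.221 with the block) or 2.77-fold, with 3 of 4 WT arrays well above background. Within pool numbers the Ptgs2 difference was 2.29, -0.18 and 2.30, and the arrays of pool 1 gave 1.93 and 2.66, the widest gap among the 10 genes. Of 10 other measured genes of the prostaglandin pathway, 6 had a positive difference, 0 passed and the median was 0.01. Ptgs1, the constitutive cyclooxygenase, had a difference of 0.23 (SE 0.17), and Hpgd, the enzyme that inactivates prostaglandins, one of 0.52 (SE 0.23). Tbxas1, thromboxane synthase, and Ptger1, a prostaglandin E receptor, had differences of 0.45 (SE 0.24) and 0.29 (SE 0.24).

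Gadd45b is a stress and activity gene whose product takes part in DNA demethylation at the promoters of growth factors in hippocampal neurons. Its signal was 3.04, 1.17 and 2.08 in CKO pools 1, 2 and 3, against 1.23, 0.83 and 0.37 in the WT pools. CKO pool 2 lay just under the highest WT pool, and the other CKO pools lay above all WT pools. Gadd45b averaged 2.10 ± 0.94 in CKO pools and 0.81 ± 0.43 in WT pools (SD, n = 3 each), a difference of 1.29 (SE 0.42) or 2.44-fold that did not pass the limma test (adjusted p = 0.703). With the block it rose (adjusted p = 0.0498), by 1.82, 0.34 and 1.71 in pools 1, 2 and 3. The call was lost with quantile scaling (adjusted p = 0.0959 with the block) and with the second array of WT pool 1 left out (0.0971), and likewise without pool 1 of both genotypes (0.198).

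Pim1 encodes a serine/threonine kinase whose transcript is induced by growth factors and by long-term potentiation. Its signal was -2.23, -4.65 and -4.07 in CKO pools 1, 2 and 3, against -4.83, -4.70 and -5.60 in the WT pools. The CKO pools lay above all WT pools, though CKO pool 2 only by 0.05 over WT pool 2. The difference was 1.39 (SE 0.58, limma adjusted p = 0.883, 0.240 with the block) or 2.63-fold, with the probe clear of background on all CKO arrays and on 2 of 4 WT arrays. Of 9 measured relatives and partners of Gadd45b and Pim1, 5 had a positive difference and 0 passed. Gadd45g, a relative of Gadd45b, had differences of 1.00, 0.27 and 0.74 in pools 1, 2 and 3 (mean 0.67, SE 0.25, limma adjusted p = 0.810). Pim2 and Pim3 had mean differences of 0.41 (SE 0.22) and 0.29 (SE 0.20), and Gadd45gip1, which encodes a protein that binds GADD45, one of -0.20 (SE 0.23).

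Rgs2 encodes a GTPase-activating protein that ends signalling through Gq and whose transcript is induced by stimulation in hippocampus. On its brighter probe the signal was 3.22, 2.32 and 3.03 in CKO pools 1, 2 and 3, against 2.35, 2.21 and 1.53 in the WT pools. CKO pool 2 fell between WT pools 1 and 2, and the other CKO pools lay above all WT pools. The difference was 0.83 (SE 0.28, limma adjusted p = 0.727, 0.179 with the block), with 0.88, 0.11 and 1.50 in pools 1, 2 and 3. The other Rgs2 probe gave 0.48, with 0.76, -0.03 and 0.70 in pools 1, 2 and 3. Of 14 measured RGS and Gq genes, 9 had a positive difference and 0 passed. Rgs4, another activity-related member, had a difference of 0.57 (SE 0.24). Rgs9, a striatal member of the family, had one of -0.66 (SE 0.14, limma adjusted p = 0.259) that was alike in the 3 pool numbers, at -0.66, -0.60 and -0.72. Rgs12 and Rgs16 had differences of -0.28 (SE 0.11) and -0.60 (SE 0.28).

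Rheb and Dusp1 differed by less than the spread between pools. Rheb, the small GTPase that switches on mTORC1, had a difference of 0.08 (SE 0.19, limma adjusted p = 0.999), and its 3 probes gave 0.08, 0.07 and 0.16. The Rheb signal was 0.72, 0.74 and 0.88 in CKO pools 1, 2 and 3, against 0.27, 0.89 and 0.92 in the WT pools, of which WT pool 1 was the low one. Of 11 measured mTORC1 and TSC genes, 4 had a positive difference and 0 passed. Tsc1, a brake on Rheb, had a difference of -0.25 (SE 0.22), Rhebl1, its relative, one of -0.30 (SE 0.28), and the mTORC1 inhibitors Akt1s1 and Sesn2 had 0.34 (SE 0.21) and 0.18 (SE 0.17).

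Dusp1, a phosphatase that shuts off MAP kinases, read 0.14, -0.94 and 0.35 in CKO pools 1, 2 and 3, against -0.18, -0.45 and -0.09 in the WT pools. CKO pool 2 was the lowest of the 6 and CKO pool 3 the highest. The mean difference of Dusp1 was 0.09 (SE 0.31, limma adjusted p = 0.999), made of 0.32, -0.49 and 0.44 in pools 1, 2 and 3. Of 15 measured MAP kinases and dual-specificity phosphatases, 9 had a positive difference and 0 passed. Dusp5 and Dusp4, nuclear MAP kinase phosphatases, had differences of 0.79 (SE 0.31) and 0.58 (SE 0.38), in pools 1, 2 and 3 of 0.94, -0.04 and 1.48 for Dusp5 and 1.16, -0.27 and 0.87 for Dusp4. Dusp2, another phosphatase of this family, had a difference of -0.30 (SE 0.22).

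**Figure D3:**
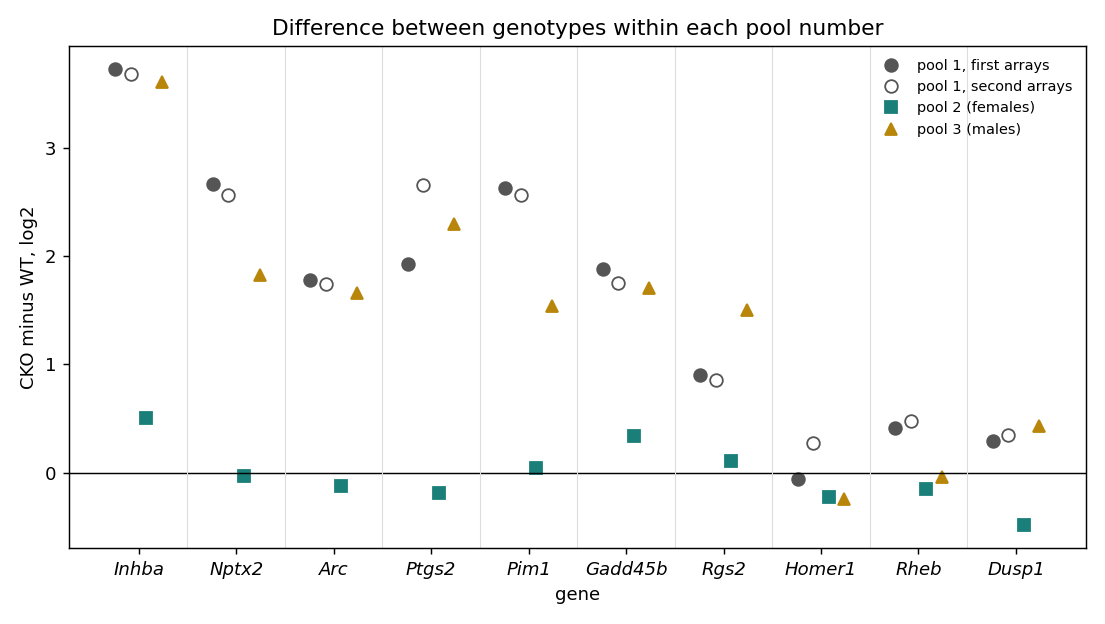
CKO minus WT on the log2 scale within each pool number, with the first and second arrays of pool 1 apart, for the 10 genes. For the first 7 genes both arrays of pool 1 and pool 3 stand well above 0 and pool 2 lies between -0.18 and 0.51, and for Homer1, Rheb and Dusp1 the points lie between -0.49 and 0.48.

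Pool 1 allows the same comparison on both slides. The median difference over the 10 genes was 1.83 on its first arrays, which shared a slide with pool 2, and 1.75 on its second arrays, which shared a slide with pool 3. The difference of a gene moved by a median of 0.06 between them. Pool 2, on the slide of those first arrays, had a median of -0.08. The CKO pool was above the WT pool of the same number in pools 1 and 3 and below it in pool 2 for 4 genes, Arc, Nptx2, Ptgs2 and Dusp1, where 8.5% of all genes did so. By brightest probe it was above in all 3 pool numbers for 4 genes, Inhba, Gadd45b, Pim1 and Rgs2, as for 14.1% of all genes. Pool numbers differ in sex and age as well as in the mice, with 1 pool per genotype in each, so these cannot be told apart.

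Other activity-regulated genes split by pool number in the same direction. Of 30 further effectors, 26 had a positive difference with a median of 0.32, and the median was 0.52, -0.04 and 0.49 in pools 1, 2 and 3. None of them passed the limma test, and 8 of the 30 were higher at an unadjusted p under 0.05, as were 533 of all 18307 genes. Gem, a small GTPase that limits calcium channels, Pcdh8, a protocadherin that is internalised on activity, and Trib1, a pseudokinase, had differences of 1.13 (SE 0.33), 0.96 (SE 0.28) and 0.73 (SE 0.25), and for each of the 3 the CKO pools lay above all WT pools, as for 5.71% of all genes. Penk, the enkephalin precursor, went the other way at -0.83 (SE 0.15, limma adjusted p = 0.183), with -0.74, -0.97 and -0.79 in pools 1, 2 and 3, and with the block it fell (adjusted p = 0.0230).

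Of the immediate early transcription factors that are induced with these effectors, 23 of 26 were measured and 21 had a positive difference, with a median of 0.76, -0.09 and 0.92 in pools 1, 2 and 3. None passed the limma test. Fos had a difference of 2.15 (SE 0.92), with 3.04, 0.17 and 3.23 in the 3 pool numbers, Junb one of 1.01 (SE 0.42) and Maff one of 1.29 (SE 0.53). Maff cleared background on all CKO arrays and 3 of 4 WT arrays, so it entered the test through CKO. Atf3, a stress-induced factor, cleared background on all CKO arrays and 2 of 4 WT arrays, so that it entered the test through CKO and its WT level is partly at background. Its difference was 3.50, 1.84 and 3.09 in pools 1, 2 and 3, and with the block it rose (adjusted p = 0.00471, against 0.190 without it).

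**Figure D4:**
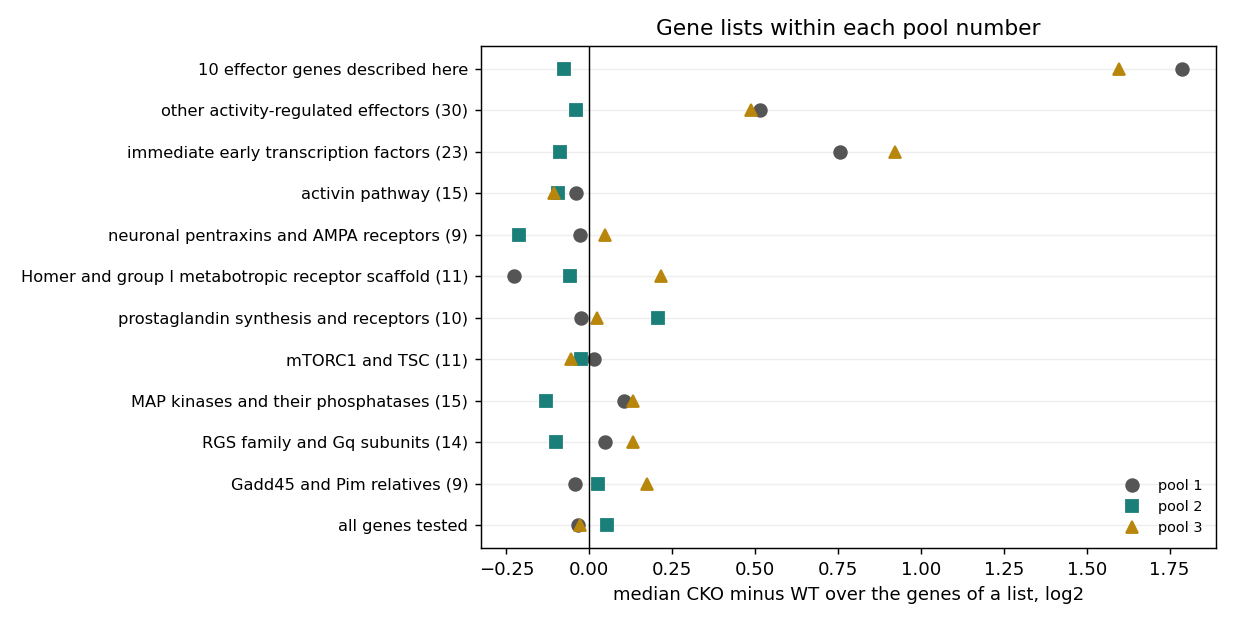
Median CKO minus WT difference (log2) over the measured genes of each list in pool 1 (circles), pool 2 (squares) and pool 3 (triangles), with the number of measured genes in brackets. The 10 effector genes reach 1.79 and 1.60 in pools 1 and 3 and -0.08 in pool 2, both other activity lists have medians of 0.49 to 0.92 in pools 1 and 3 and below 0 in pool 2, and the partner lists stay between -0.23 and 0.22.

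The genes whose levels ran most like the mean of the 10 were sought among the 835 genes outside these lists with an SD of at least 0.5 over the 6 pools. By Pearson correlation over the 6 pools they were Prdm12 (0.993), Csrnp1 (0.970), Hspa1a (0.968), Etv3 (0.961), Cdkn1a (0.952) and Cenpa (0.942). Prdm12 encodes a PR-domain transcription factor, Hspa1a the inducible heat shock protein HSP70, Cdkn1a the cell cycle inhibitor p21, and Cenpa the centromeric histone. These values rest on 2 high pools, CKO 1 and CKO 3, over 4 lower ones and are a description. Set against the WT pool of the same number, Prdm12 had CKO minus WT differences of 1.88, 0.30 and 1.58 in pools 1, 2 and 3. Those of Hspa1a were 1.01, 0.12 and 1.49, and those of Cdkn1a 1.79, 0.67 and 1.88.

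The deleted gene and the cell type markers set the frame for these values. Ctcf averaged 0.13 ± 0.07 in CKO pools and 1.00 ± 0.15 in WT pools (SD, n = 3 each), a difference of -0.87 (SE 0.13, limma adjusted p = 0.142, 0.0298 with the block). It was at 0.18, 0.16 and 0.05 in CKO pools 1, 2 and 3, and how its level by pool bears on the values of the 10 genes was not tested. Across all 18307 genes, 7 were higher and 1 lower in CKO, with 533 and 470 at an unadjusted p under 0.05, and with the block 70 were higher and 31 lower. Excitatory neuron markers were present, with 7 of 8 measured and 3 of the 7 above 0, a median difference of -0.09 and summed levels of 26.2 to 30.8 in CKO pools, against 27.6 to 35.2 in WT pools. Among them C1ql2 and Wfs1 had differences of -1.10 and -0.91 (limma adjusted p = 0.472 and 0.117), and the others lay between -0.09 and 0.35. The mean of the excitatory markers relative to WT was -0.29, -0.29 and -0.14 in CKO pools 1, 2 and 3, against 0.17, 0.05 and -0.22 in WT pools. The part of these markers in the values of the 10 genes was not tested. Choroid plexus markers were higher in CKO for 8 of 8 genes, with a median of 0.83. Their summed level was 66.6 to 95.0 in CKO pools, against 31.0 to 85.9 in WT pools. CKO pools 1, 2 and 3 were at 0.95, 1.00 and 0.43 by these markers, against -1.32, 0.51 and 0.81 in WT pools. The part of choroid plexus in the values of the 10 genes was not tested. Of the markers of interneurons, astrocytes, microglia, oligodendrocytes, vessels, blood and thalamus, 0 genes passed, and the list medians lay between -0.04 and 0.23. The 75th percentile signal of the arrays was 3949, 2883, 5104 and 4780 on the arrays of CKO pools 1, 1, 2 and 3, against 4406, 2112, 4636 and 3956 on those of WT, and its part in the values of the 10 genes was not tested.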

How the data were processed

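RNA from 8 arrays of 6 hippocampus pools was measured as spot intensity in the Cy5 channel, with 43020 non-control spots per array. The submitters' processing notes name Agilent Feature Extraction 11.5, and the headers of the deposited files give version 11.5.1.1. In those headers the processed signal is an intensity after background subtraction and spatial detrending, with no normalization across arrays, and other deposited columns hold flags. The authors' series value table, also linear intensity, has the spot order of the background-subtracted signal (Spearman's rho of 1 on each array, medians 652 to 944). It served as an alternative, and how it was scaled across arrays is not stated in the sources used here.

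Each value is the log2 processed signal less the log2 of the 75th percentile of its array. Spots flagged as outliers were dropped, the spots of a probe were averaged, and both arrays of pool 1 were averaged, which leaves 3 pools per genotype. Whether same-numbered pools share more than their sex and age makeup is not stated in the labels. A total of 23597 probes were kept that cleared background on every array of CKO, of WT or of both and had a value in every pool, and a gene was read by its brightest probe. Between 59.2% and 66.0% of spots carried the flag for a signal well above background, and 0 spots were saturated. The number of pools, 3 per genotype, limits the precision. CKO and WT pools were compared by limma 3.58.1 (lmFit and trended eBayes, R 4.3.3) in two-sided tests, adjusted over 18307 genes by Benjamini-Hochberg, at a threshold of 0.05. The script was tested on simulated data.

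Departures from the genotype means correlated across genes at 0.549, 0.335 and 0.131 for pools of the same number, and at most 0.123 for other pairs. From the first arrays only, the same-number values were 0.0854, 0.0775 and 0.124. Departures within a genotype sum to 0, so the values of different pairs depend on each other. They cannot decide whether pools of the same number share more than others. The blocked fit is given as an alternative where it changes a call.

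Array gene names are those of the design (mm9 build); members were matched by GeneName, and 27490 other probes were renamed through RefSeq accessions. Promoter sequences are RefSeq's (GRCm38.p6), and no probe coordinates are given. The genes, lists and alternatives were chosen with earlier results of these data known. Named genes were the members, Ctcf, up to 4 genes per list by unadjusted p, and the 6 genes of highest correlation with the members' mean. Some genes that this rule takes are left out of the text. Alternatives covered scaling, background correction, dim-probe filter, probe reading, arrays, slide, repeat probes, single pools and the block.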

Additional observations from a re-analysis of the deposited data

Results flagged for a closer look

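For 4 of the 10 genes the difference between CKO and WT ran one way in pool 2, which held females, and the other way in pool 3, which held males. The CKO minus WT difference in pool 2 was -0.12 for Arc, -0.034 for Nptx2, -0.18 for Ptgs2 and -0.49 for Dusp1. In pool 3 it was 1.66 for Arc, 1.82 for Nptx2, 2.30 for Ptgs2 and 0.44 for Dusp1. Each pool number holds 1 pool per genotype, so the change of sign was not tested, and sex, age and the mice of a pool cannot be told apart. Pool 1, run on both slides, gave 1.78 for Arc, 2.67 for Nptx2, 1.93 for Ptgs2 and 0.29 for Dusp1 on the slide of pool 2, and 1.74, 2.57, 2.66 and 0.35 for the same genes on the slide of pool 3. In Arc, Nptx2 and Ptgs2 the pool 2 values are close to 0 and smaller than the SD of the WT pools (0.35, 0.28 and 0.43). In Dusp1 both values exceed the SD of the WT pools (0.19) and are smaller than that of the CKO pools (0.69). Pool 1, of both sexes, had differences of 1.76 for Arc, 2.62 for Nptx2, 2.29 for Ptgs2 and 0.32 for Dusp1.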

How the results depend on the processing

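Over the alternatives run, the median difference of the 10 genes stayed positive (0.66 to 1.82), as did the difference of each of Arc, Inhba, Nptx2, Gadd45b, Pim1, Ptgs2 and Rgs2, while those of Homer1, Rheb and Dusp1 changed sign in some. With 1 pool left out the median ran from 0.66 to 1.82 and the count of the 10 genes past the threshold stayed at 0. With the replicate block the number of the 10 past the threshold was 2, without pool 3 of both genotypes also 2, and without pool 2 of both genotypes 7 (1 residual degree of freedom, an alternative chosen after seeing the data), and the block changed no other call among the 10. The count was 0 with the block and quantile scaling, no GAA-repeat probes (adjusted p 0.0592 for Inhba and 0.0606 for Gadd45b), first arrays alone (0.119 and 0.110), no second array of WT pool 1, or no pool 1. The 8 genes past the threshold among all genes became 101 with the block. With the block and a second change the count was 68 (quantile scaling), 56 (no GAA-repeat probes), 70 (first arrays alone), 64 (second array of WT pool 1 left out), and 61, 459 and 201 without pool numbers 1, 2 and 3. Without the block it was 5 with quantile scaling, 3 with normexp, 3 with the authors' table, 5 with probes clear of background on all arrays, 5 with the mean over probes, 125 with first arrays alone, 108 without the second array of WT pool 1, 0 within slide 2, and 0 to 21 with 1 pool left out, the 0 being without CKO pool 3 or WT pool 3 and the 21 without WT pool 1. Dusp1 was -0.010 in the authors' table, -0.098 within slide 1, -0.025 and -0.083 with the block without pool numbers 1 and 3, and -0.16 to 0.49 with 1 pool left out. Homer1 was 0.36 with the mean over its probes and 0.018 within slide 2. Rheb was -0.015 without the second array of WT pool 1, with or without the block, -0.096 with the block without pool number 1, and -0.13 to 0.20 with 1 pool left out. The cause of these changes was not tested. Pim1 and Ptgs2 fall out when all arrays must clear background, and dim WT signal limits the folds of Pim1, Ptgs2 and the second Nptx2 probe.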
